A study of Mus musculus with 18 samples.

Results

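Liver transcriptomes of 3 C57BL6J females that received low-dose penicillin (LDP) from birth, LDP females 39, 52 and 54, were compared with those of 3 C57BL6J females without antibiotics, control females 29, 30 and 32, across all genes. The 6 libraries were chosen by their group labels alone, out of 18 liver libraries in 6 groups of 3. All 6 mice were weaned at week 4 onto chow, changed at week 6 to food in which fat gave 45% of the energy, and sampled at 8 weeks. The comparison asks how the liver of a female differs after penicillin from birth. The dose and route of penicillin, the cages and the litters are not given in the sources used here, so the drug and a shared litter or cage cannot be told apart. The other groups serve only to test where the females differ from them. LDP males 8, 10 and 11 and control males 5, 6 and 7 were of the same strain, age and diet. The recipients were germ-free Swiss Webster females colonized at week 3, mice 2, 5 and 8 with microbiota from LDP females and mice 1, 3 and 7 with that from control females. They had no penicillin of their own, ate the same high-fat food and were sampled at 8 weeks too, so that strain, drug and former germ-free state all separate them from the LDP females. The week at which they began that food was not recorded here, against week 6 in the LDP females.

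Penicillins block the building of the bacterial cell wall and act on the gut microbiota where they reach it, and products of that microbiota arrive in the liver through the portal vein. Hepatocytes burn fatty acids in mitochondria and peroxisomes, much of it under the nuclear receptor PPARA, which fasting and dietary fat activate. Stellate cells, portal fibroblasts and the mesothelial cells of the capsule make most liver collagen, and nearly all liver cells answer interferon with a shared set of antiviral genes.

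The 6 libraries held 17937005 to 25703227 counts, with 15433 to 15893 genes counted at least once, and 12914 of the 23337 genes in the table had enough counts to be tested. Values are CPM, counts scaled to a common library size as described with the processing, and changes are LDP minus control on the log2 scale with the standard error of the fit. The tissue matched its label: the 15 hepatocyte markers summed to 201068 to 209992 CPM in LDP females and 199319.5 to 212433 CPM in controls, and albumin took 12.88 ± 0.507% of counts in LDP females and 12.26 ± 1.02% in controls (SD, n = 3, exact two-sided permutation p = 0.5, where 0.1 is the smallest that 3 mice against 3 allow). Of the markers of red blood cells, 1 of 7 (Hba-a1) was at 0 in all 6 libraries, and the list summed to 11.8 to 23.5 CPM over the 6 mice. The same counts were 5 of 12 for pancreatic acinar cells, Prss1 among them (10.7 to 19.5 CPM), 5 of 10 for gut epithelium, Reg3g among them (72.9 to 158 CPM), and 3 of 10 for adipocytes, Plin1, Lep and Retn (1013 to 1417 CPM). Mice 54 and 29 stood apart from the others. On the first principal component, with 34.1% of the variance, LDP female 54 lay at -31.08 and the other 5 between 0.149 and 12.55, and on the second, with 27.9%, control female 29 lay at -25.75 and the others between -5.88 and 11.2. Changes that move by over 1.5 times when one or both of these mice are left out are also given without them.

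By the quasi-likelihood test of edgeR, 0 of 12914 genes (0%) passed at an adjusted p of 0.05 (Benjamini-Hochberg), and the smallest adjusted p was 0.206, for Col3a1. Before adjustment, 347 genes (2.69%) were higher and 235 (1.82%) lower in LDP females at a p under 0.05. In 642 genes (4.97%) all LDP females were above all controls, and in 536 (4.15%) all were below. DESeq2, run as an alternative, called 15 of the 12162 genes to which it gave an adjusted p (0.123%). Its 13 higher genes were the collagens Col3a1, Col1a1, Col1a2, Col6a1 and Col6a3, the interferon-induced Ifit2, Rsad2 and Ly6e, and Atf3, Fstl1, Igfbp3, A1bg and Fam84b, the last named only for this call, and its 2 lower genes were Gja4 and Retsat. Because no gene passed the main test, the differences below are values of these 6 mice, read against those background shares. Among the gene lists, the most members at an unadjusted p under 0.05 were in matrix (19 of 23) and type I interferon response (16 of 38) on the higher side. On the lower side they were in omega and peroxisomal (9 of 21) and mitochondrial (5 of 24) fatty acid oxidation. This ranks counts, which favours long lists, and by share mesothelial markers (5 of 10) stood above type I interferon. With 1 mouse left out, 430 to 735 of all genes reached that p, so list counts without a mouse move with this background.

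Genes of the fibrillar collagens, collagen VI and the matrix built with them stood higher in LDP females. Of the 23 tested members, 22 were higher, 19 of them at an unadjusted p under 0.05 and 18 with all LDP females above all controls, and the median change was 0.61, where 6571 of 12914 genes were higher with a median of 0.003. By edgeR 0 members passed and by DESeq2 5 did, and with mice 29 and 54 both left out the median was 0.51. Collagen III (Col3a1, chr1:45311538-45349706 in GRCm38) is a fibrillar collagen of soft tissue. Its level was 39.04, 51.9 and 44.6 CPM in control females 29, 30 and 32 and 109.6, 86.2 and 94.7 CPM in LDP females 39, 52 and 54. All 3 LDP females lay well above all 3 controls, by 1.10 ± 0.13 (edgeR unadjusted p = 1.60e-05, adjusted p = 0.206), and the change was 0.998 to 1.21 when each mouse in turn was left out.

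The 2 chains of collagen I, the main fibre of scar and bone, showed the same order of groups. Col1a1 (chr11:94936224-94953042) was at 6.67, 8.83 and 5.89 CPM in controls and 20.6, 13.2 and 15.8 CPM in LDP females, in the same mouse order, a difference of 1.21 ± 0.20. Col1a2 (chr6:4504814-4541544) was at 21.8, 24.3 and 22.9 CPM in controls and 45.9, 34.02 and 36.8 CPM in LDP females, a difference of 0.76 ± 0.12. In both genes LDP female 39 was the highest and LDP female 52 the lowest of the treated mice, still above every control. Collagen VI forms beaded filaments around cells, and its chain Col6a3 (chr1:90765923-90843971) was at 6.44, 8.63 and 8.79 CPM in controls and 16.3, 12.8 and 18.2 CPM in LDP females, a difference of 0.99 ± 0.17. Col6a1 differed by 0.74 ± 0.14. Thbs1, a matricellular protein that can free TGF-beta from its latent form, was at 1.19, 1.61 and 1.36 CPM in controls and 3.38, 2.49 and 3.75 CPM in LDP females, a difference of 1.21 ± 0.23. The groups did not overlap in any of these 6 genes. Fstl1, a secreted glycoprotein of mesenchymal cells, differed by 0.81 ± 0.15 and the microfibril protein Fbn1 by 0.78 ± 0.17. Fibronectin (Fn1), which hepatocytes secrete into plasma, was the member not on the higher side, at 2187, 2579.9 and 2253 CPM in controls and 2485, 2398 and 2125 CPM in LDP females, a difference of -0.002 ± 0.14 whose sign turned with upper quartile scaling.

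**Figure D1:**
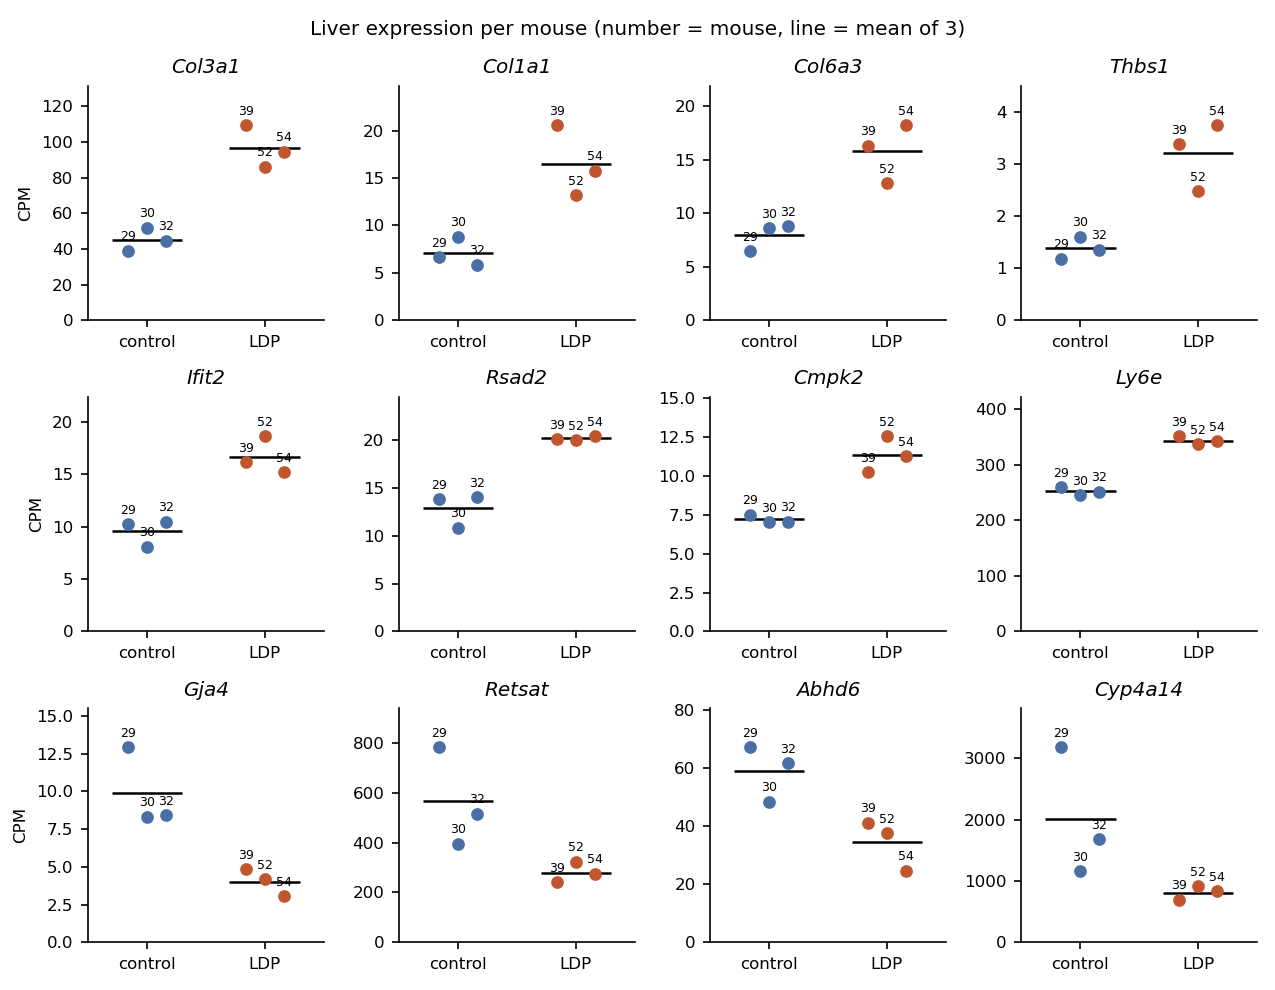
Level of 12 genes in each mouse, in CPM on linear axes that start at 0, with control females on the left and LDP females on the right. Numbers are mice and lines are means of 3. In all 12 panels the groups do not overlap, as for Col3a1, at 39.04 to 51.9 CPM in controls and 86.2 to 109.6 in LDP females.

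The plot of 12 genes by mouse shows matrix and interferon genes higher in each LDP female, and Gja4, Retsat, Abhd6 and Cyp4a14 lower. Genes without overlap were chosen for it, so the separation in its panels is fixed by that choice. The enzymes that finish and cross-link collagen belong to the list of basement membrane and remodelling genes, in which 21 of 26 were higher with a median of 0.30 (0.18 with mice 29 and 54 left out), 9 of them at an unadjusted p under 0.05. Adamts2, which trims the ends of procollagen, differed by 0.72 ± 0.14. The cross-linking enzymes Loxl1 and Loxl2 differed by 1.22 ± 0.34 and 0.59 ± 0.16, and Col4a1, a basement membrane collagen, by 0.38 ± 0.11. Of the TGF-beta signalling genes, 17 of 21 were higher with a median of 0.18 (0.12 to 0.31 with 1 mouse left out), 5 at an unadjusted p under 0.05. The latent TGF-beta binding proteins Ltbp1 (0.69 ± 0.16) and Ltbp3 (0.66 ± 0.17), the target Ctgf (0.71 ± 0.21, or 0.45 without mice 29 and 54) and the feedback inhibitor Smad7 (0.51 ± 0.16) were on the higher side with no overlap between groups. The ligand Tgfb1 itself stood at 12.5, 9.89 and 10.4 CPM in controls and 10.1, 9.99 and 10.2 CPM in LDP females, a difference of -0.11 ± 0.12 that was -0.007 without control female 29.

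Cells that make matrix were read from their own markers, since in bulk RNA more cells of a type and more RNA per cell cannot be told apart. Mesothelial markers of the liver capsule were all on the higher side, 10 of 10 tested (of 14 in the table) with a median of 1.12 and 5 at an unadjusted p under 0.05. The 14, of which Krt19 is also on the cholangiocyte list, summed to 174.6 to 270.1 CPM in LDP females. In controls they summed to 161.2 to 210.3 CPM, and the 2 ranges overlap. The mean shift of the 10 tested markers from the control average was 1.18 in LDP female 39, 0.44 in LDP female 52 and 0.27 in LDP female 54, and so largest in LDP female 39. Without that mouse their median was 0.46, while that of the matrix list was 0.62, with 14 of 23 members at an unadjusted p under 0.05. Upk3b, a membrane protein of mesothelium, was at 1.41, 1.305 and 1.08 CPM in controls and 5.73, 3.49 and 1.69 CPM in LDP females, and Msln, or mesothelin, at 1.13, 1.61 and 1.26 CPM in controls and 6.01, 2.27 and 2.11 CPM in LDP females. Of the 10 tested markers 5 had no overlap between groups, Upk3b and Msln among them. Upk3b and Msln make up little of the summed levels, which come mainly from other members. The list also holds Krt8, Krt18 and Cav1, whose part in the sums was not examined. The mean shift of the matrix list was 0.70 in LDP female 39, 0.41 in LDP female 52 and 0.66 in LDP female 54. Stellate cell markers were higher in 12 of 15 with a median of 0.07 (-0.01 with mice 29 and 54 left out and 0.04 to 0.16 with 1 mouse left out) and summed to 562.1 to 622.4 CPM in LDP females and 503.8 to 594.5 CPM in controls, ranges that overlap. The 3 of them at an unadjusted p under 0.05 were Pdgfrb, the receptor for platelet-derived growth factor (0.48 ± 0.16), the lectin Colec11 (0.32 ± 0.11) and Lrat, which stores retinol as ester (0.31 ± 0.13). With mice 29 and 54 left out, Pdgfrb differed by 0.26 and Colec11 by 0.20, and Lrat differed by 0.19 without control female 29. Markers of portal fibroblasts and smooth muscle were higher in 6 of 10 with a median of 0.33 (0.17 without control female 29), 3 at an unadjusted p under 0.05. They summed to 62.4 to 69.7 CPM in LDP females and 45.4 to 59.8 CPM in controls, ranges that do not overlap. Mfap4 is both on this list and on the matrix list. The part of these cells in the matrix values was not tested.

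**Figure D2:**
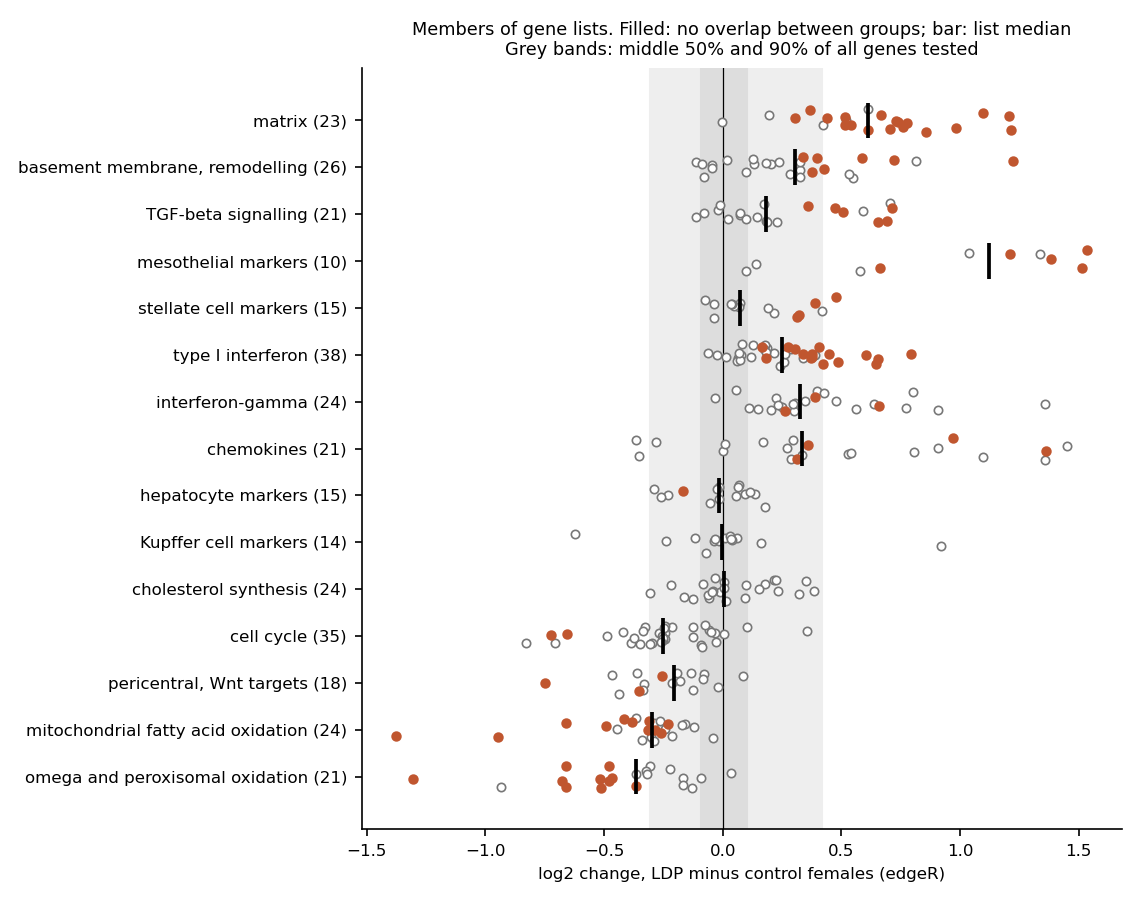
Change of each tested member of selected gene lists, LDP minus control females, on the log2 scale (horizontal), with 1 row per list and the number of members in brackets. Filled points have no overlap between groups, bars are list medians and grey bands hold the middle 50% and 90% of all genes tested. The matrix members lie mostly to the right (median 0.61) and those of mitochondrial fatty acid oxidation to the left (median -0.30).

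The plot of list members sets these shifts against all genes. Next to the matrix lists, the response to type I interferon was shifted to the right by less per gene but in nearly every member. Of 38 tested members, 36 were higher with a median of 0.25, 16 at an unadjusted p under 0.05 and 16 with no overlap. These genes are switched on by the factor ISGF3, which binds the interferon-stimulated response element, a repeat built on GAAA. Promoters of 3 members from RefSeq that hold its core are shown to place the element beside the values of these genes. Each is the 250 bases before the RefSeq start in GRCm38.p6, 5′ to 3′ on the gene's strand, with matches to GAAANNGAA, on either strand, in capitals, where overlapping matches run together. Rsad2 makes viperin, an antiviral enzyme (chr12:26456453-26456702, minus strand, 1 match, 119 bases before the start):
Rsad2: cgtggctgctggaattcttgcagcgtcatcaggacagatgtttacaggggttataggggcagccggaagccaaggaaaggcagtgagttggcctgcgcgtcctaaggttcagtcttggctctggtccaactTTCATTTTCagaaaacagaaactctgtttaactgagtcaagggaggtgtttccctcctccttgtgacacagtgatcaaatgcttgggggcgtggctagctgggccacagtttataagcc
Ifit3 makes a partner of the RNA-binding Ifit proteins (chr19:34583279-34583528, plus strand, 3 matches, 155 to 102 bases before the start):
Ifit3: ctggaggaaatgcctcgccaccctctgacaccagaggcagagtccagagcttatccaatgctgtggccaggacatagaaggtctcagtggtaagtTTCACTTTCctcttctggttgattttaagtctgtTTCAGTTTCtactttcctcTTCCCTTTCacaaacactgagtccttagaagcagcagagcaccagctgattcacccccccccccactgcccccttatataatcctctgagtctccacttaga
Ifit1 binds viral RNA that lacks the host cap methylation (chr19:34640639-34640888, plus strand, 3 matches, 109 to 84 bases before the start):
Ifit1: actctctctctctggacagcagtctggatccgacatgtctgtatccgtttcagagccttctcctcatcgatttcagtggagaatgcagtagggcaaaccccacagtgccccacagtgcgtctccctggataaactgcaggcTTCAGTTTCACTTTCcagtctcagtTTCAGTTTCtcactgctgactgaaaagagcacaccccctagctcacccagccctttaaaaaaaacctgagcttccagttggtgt
Windows ran from 250 bases before to 50 after the start, and a gene counted where any of its listed starts held a match. In them GAAANNGAA was found in 14 of the 27 type I members with a RefSeq promoter (51.9%) and 13 of 16 interferon-gamma targets (81.2%). The share was 823 of 9290 tested genes (8.86%) and 2638 of all 27025 gene names with a promoter (9.76%). A match is a description of letters, not a site. Ifit2 and Cmpk2 held none in their windows.

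Ifit2 (chr19:34550694-34576419), which restrains translation of viral RNA, was at 10.2, 8.08 and 10.5 CPM in control females 29, 30 and 32 and 16.1, 18.6 and 15.2 CPM in LDP females 39, 52 and 54. Every LDP female was above every control, by 0.80 ± 0.14 (edgeR unadjusted p = 2.44e-04, adjusted p = 0.591). Rsad2 (chr12:26442746-26456452) was at 13.8, 10.8 and 14.02 CPM in controls and 20.1, 20.02 and 20.4 CPM in LDP females, a difference of 0.65 ± 0.12. Its neighbour Cmpk2 (chr12:26469204-26479837), a mitochondrial nucleotide kinase, was at 7.51, 7.02 and 7.06 CPM in controls and 10.2, 12.6 and 11.3 CPM in LDP females, a difference of 0.66 ± 0.12. The 3 LDP females were close to each other in Rsad2, within 20.02 to 20.4 CPM. Ly6e, an antiviral surface protein and the most abundant of these genes, was at 259, 245 and 251 CPM in controls and 351, 336 and 342 CPM in LDP females, a difference of 0.45 ± 0.10. Ifit3 was at 20.96, 16.5 and 17.7 CPM in controls and 24.6, 29.8 and 22.7 CPM in LDP females, a difference of 0.49 ± 0.13, and Ifit1, chosen after its values were seen because its promoter is shown, at 18.6, 17.1 and 13.3 CPM in controls and 22.5, 23.9 and 20.3 CPM in LDP females, a difference of 0.45 ± 0.14. Of the 2 members on the lower side Epsti1 had the smaller p, with a difference of -0.06 ± 0.18. The count of members at an unadjusted p under 0.05 was 8 without control female 30, 9 without LDP female 52 and 23 with both mice that stand apart left out. Over all genes that count was 430 to 735 with 1 mouse left out, against 582 in full. It is not given here for both left out, so the 23 has no background beside it.

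Targets of interferon-gamma were also mostly higher, 23 of 24 with a median of 0.33 (0.16 without LDP female 54), but the mice differed. Their mean shift was -0.07 in LDP female 39, 0.34 in 52 and 0.82 in 54, against 0.26, -0.25 and -0.01 in control females 29, 30 and 32. The groups therefore overlapped for the list as a whole, and 4 members reached an unadjusted p under 0.05, or 14 without LDP female 39 and 1 when LDP female 54, LDP female 52 or control female 30 was left out. Gbp9, a GTPase that attacks the vacuoles of microbes and has close copies whose reads may mix, differed by 0.66 ± 0.19, and the factor Irf1 by 0.26 ± 0.11, or 0.15 without LDP female 54. MHC class I presentation genes were higher in 16 of 21 with a median of 0.05 (-0.03 to 0.10 with 1 mouse left out) and 0 members at an unadjusted p under 0.05. Chemokines were higher in 18 of 21 with a median of 0.33 and 6 at an unadjusted p under 0.05, 3 without LDP female 54, 3 without control female 30 and 9 without LDP female 39. Cx3cl1, the ligand of the monocyte receptor CX3CR1, was counted among the 6. It stood at 0.226, 0.301 and 0.467 CPM in controls and 1.03, 0.742 and 0.844 CPM in LDP females, and since all controls were under the minimum for testing, it was tested only through the LDP females and its difference supports nothing. Cxcl16, which draws NKT cells, differed by 0.36 ± 0.14. Markers of monocytes and recruited macrophages were higher in 13 of 15 with a median of 0.28 and 0 at an unadjusted p under 0.05, and summed to 165, 144 and 158 CPM in control females 29, 30 and 32 and 202, 191 and 161 CPM in LDP females 39, 52 and 54. LDP female 54 lay below control female 29, so these sums overlapped. Those of Kupffer cells, the resident macrophages, were higher in 7 of 14 and summed to 1121 to 1429.9 CPM in LDP females and 1079 to 1411 CPM in controls. The part of these cells in the interferon values was not tested.

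Fatty acid oxidation stood lower in LDP females. Of 24 mitochondrial oxidation and ketogenesis genes, 24 were lower with a median of -0.30, 5 at an unadjusted p under 0.05 and 11 with all LDP females below all controls. Of 21 genes of omega and peroxisomal oxidation, 20 were lower with a median of -0.37, 9 at an unadjusted p under 0.05 and 10 with no overlap. By edgeR and by DESeq2 0 members of either list passed. Cyp4a14 (chr4:115486200-115496142), a fatty acid omega-hydroxylase with close copies whose reads may mix, was at 3184, 1161 and 1681 CPM in control females 29, 30 and 32 and 698, 913 and 830.0 CPM in LDP females 39, 52 and 54. All LDP females were below all controls, with a difference of -1.30 ± 0.35. Its paralog Cyp4a10 was at 1666, 728 and 1087 CPM in controls and 594, 743 and 485 CPM in LDP females, a difference of -0.93 ± 0.30. The peroxisomal thiolase Acaa1b, also with a close copy, was at 1635, 919 and 1020.4 CPM in controls and 761, 782 and 716 CPM in LDP females, a difference of -0.66 ± 0.21, and Ech1, an isomerase for unsaturated chains, at 578, 419.9 and 379 CPM in controls and 335, 336 and 317 CPM in LDP females, a difference of -0.48 ± 0.16. In mitochondria, the carnitine-acylcarnitine carrier Slc25a20 was at 203, 153 and 139 CPM in controls and 133, 128 and 111 CPM in LDP females, a difference of -0.41 ± 0.15. Acadm, the medium-chain dehydrogenase of beta-oxidation, was at 575, 424 and 429.6 CPM in controls and 386, 365 and 344 CPM in LDP females, a difference of -0.38 ± 0.14. In each of these genes except Cyp4a10 the groups did not overlap. The thioesterase Acot1 differed most, by -1.38 ± 0.48, but at 175, 60.6 and 56.6 CPM in controls and 32.9, 40.04 and 39.4 CPM in LDP females, so control female 29 alone was far above the rest. Without that mouse the differences were -0.65 for Acot1, -0.81 for Cyp4a14, -0.58 for Cyp4a10, -0.37 for Acaa1b, -0.28 for Ech1, -0.24 for Slc25a20 and -0.22 for Acadm. All 7 stayed below 0 and were smaller by over 1.5 times.

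Both lists moved with that mouse and with LDP female 54. The mean shift of the mitochondrial list was 0.32, -0.12 and -0.20 in control females 29, 30 and 32 and -0.28, -0.29 and -0.48 in LDP females 39, 52 and 54, lowest in LDP female 54. Without control female 29 the median was -0.14 with 2 members at an unadjusted p under 0.05, without LDP female 54 it was -0.26 with 0, without LDP female 52 -0.33 with 3, and without control female 32 it was -0.39 with 14. With both mice that stand apart left out the medians were -0.12 for the mitochondrial and -0.13 for the omega and peroxisomal list, smaller than in the full comparison and on the same side of 0. The omega and peroxisomal list had 5 members at an unadjusted p under 0.05 without control female 29 and 5 without LDP female 54.

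Other lipid genes on the lower side act on droplets and on retinoids. Retsat (chr6:72598475-72608425), a retinol saturase, was at 783, 396 and 515 CPM in controls and 240.4, 323 and 275 CPM in LDP females, a difference of -1.02 ± 0.24 (DESeq2 adjusted p = 0.0101). All 3 LDP females were below all controls, with control female 29 the highest mouse. Fitm1, which partitions fat into droplets, was at 8.81, 6.57 and 5.52 CPM in controls and 4.46, 3.71 and 2.39 CPM in LDP females, a difference of -0.97 ± 0.25. Abhd6, a monoacylglycerol lipase, was at 67.3, 48.5 and 61.7 CPM in controls and 41.3, 37.7 and 24.7 CPM in LDP females, a difference of -0.78 ± 0.20. With mice 29 and 54 left out these differences were -0.56 and -0.48. Plin5, the droplet coat protein that ties droplets to mitochondria, differed by -0.55 ± 0.16 and Plin4 by -0.86 ± 0.29. Triglyceride synthesis genes were lower in 10 of 11 with a median of -0.19 (-0.10 without control female 29, -0.12 without LDP female 54, -0.30 without LDP female 39 and -0.05 without both 29 and 54), 2 at an unadjusted p under 0.05. Lpl, the lipase of circulating triglycerides, went the other way at 31.2, 25.4 and 24.9 CPM in controls and 34.9, 45.6 and 93.3 CPM in LDP females, a difference of 1.09 ± 0.37, or 0.57 without LDP female 54, the highest mouse. Cholesterol synthesis genes were split, 13 of 24 higher with a median of 0.006 (-0.19 to 0.29 with 1 mouse left out) and 0 at an unadjusted p under 0.05. Fatty acid synthesis genes were higher in 16 of 21 with a median of 0.07 (-0.04 to 0.20 with 1 mouse left out), also with 0 at an unadjusted p under 0.05. In bile acid synthesis, Cyp2c70, which makes the muricholic acids of mice, differed by 0.43 ± 0.13 with no overlap, while the list had a median of -0.06 (-0.16 to 0.01 with 1 mouse left out).

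Outside these groups, Gja4 (chr4:127311421-127314039) had the smallest p of the lower genes. It makes a connexin, a gap junction protein of arterial endothelium, and was at 12.9, 8.33 and 8.41 CPM in control females 29, 30 and 32 and 4.86, 4.19 and 3.05 CPM in LDP females 39, 52 and 54. No LDP female reached the lowest control, and the difference was -1.28 ± 0.23 (edgeR unadjusted p = 3.21e-04, adjusted p = 0.591 and DESeq2 adjusted p = 0.00106). Of the markers of large vessels, Gja4 among them, 4 of 12 were higher, with a median of -0.11 (-0.18 to 0.0045 with 1 mouse left out). Sinusoidal endothelial markers were higher in 4 of 14 with a median of -0.11 (-0.14 to -0.00063 with 1 mouse left out) and summed to 858 to 922 CPM in LDP females and 897 to 1046 CPM in controls. Within them Lyve1, a hyaluronan receptor, was at 17.2, 33.3 and 22.95 CPM in controls and 32.2, 37.8 and 53.99 CPM in LDP females, a difference of 0.75 ± 0.28, and the lectin Clec4g differed by -0.29 ± 0.12. With mice 29 and 54 left out they differed by 0.32 and -0.16. Atf3, a stress-induced transcription factor, was at 1.02, 0.753 and 0.654 CPM in controls and 3.46, 1.396 and 3.28 CPM in LDP females, a difference of 1.75 ± 0.38 on low counts. Igfbp3, which carries IGF in plasma, was at 17.8, 27.9 and 18.3 CPM in controls and 33.9, 33.98 and 49.95 CPM in LDP females, a difference of 0.88 ± 0.22, or 0.55 without mice 29 and 54. Hamp, the iron hormone hepcidin, differed by 0.66 ± 0.24 with overlap between groups. Cell cycle genes were lower in 32 of 35 with a median of -0.25 and 1 at an unadjusted p under 0.05, the factor E2f1 (-0.66 ± 0.20), while Ccnb1 was tested only through the controls. Their median was -0.10 without LDP female 39, -0.14 without control female 29 and -0.45 without LDP female 54, where 10 members were at an unadjusted p under 0.05. Major urinary proteins, pheromone carriers whose near-identical copies may share reads, were lower in 14 of 15 with a median of -0.52, the lowest median of the lists, but with 0 members at an unadjusted p under 0.05 and 0 without overlap. Their median was -0.30 without control female 29, -0.29 without LDP female 54 and -0.06 without both. Clock genes were higher in 10 of 19 with 0 at an unadjusted p under 0.05.

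**Figure D3:**
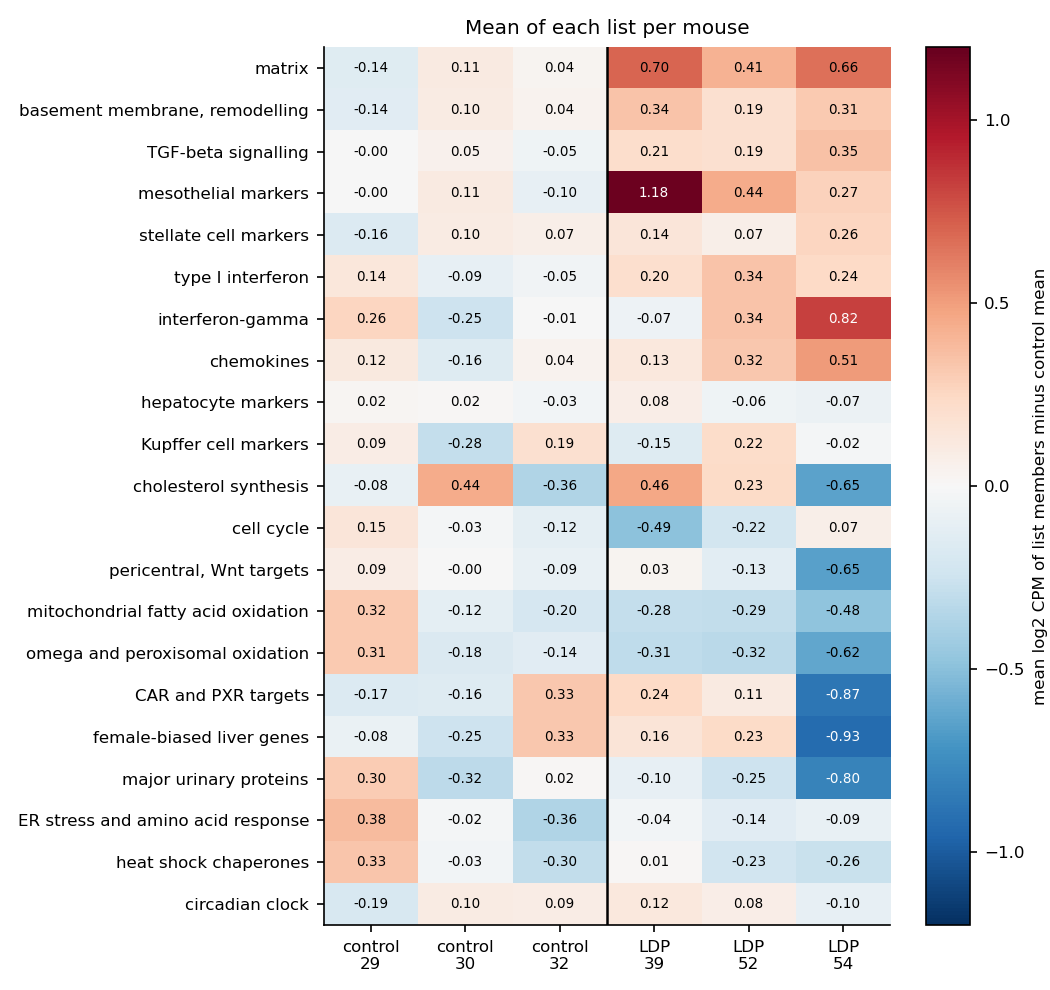
Mean of each gene list in each mouse as a color and a printed number, in log2 CPM minus the mean of the controls, with the 3 control females to the left of the line and the 3 LDP females to the right. The matrix row reads 0.70, 0.41 and 0.66 in LDP females against -0.14 to 0.11 in controls, and female-biased genes reach -0.93 in LDP female 54 alone.

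The map of list means shows which shifts were shared and which belonged to 1 mouse. Matrix and type I interferon lists were above all controls in each of the 3 LDP females, and both oxidation lists were below all controls in each. Targets of the drug sensors CAR and PXR stood at -0.87 in LDP female 54 and at 0.24 and 0.11 in LDP females 39 and 52. Genes biased to female liver, some of them shared with that list, stood at -0.93 in LDP female 54 and 0.16 and 0.23 in the other LDP females. Among 11982 genes with a mean of at least 1 CPM, LDP female 54 was at least 2-fold above all other 5 mice in 22 and at least 2-fold below them in 60. The counts were 9 and 25 in control female 29, 5 and 9 in LDP female 39, 2 and 14 in control female 32, 3 and 1 in LDP female 52, and 0 and 4 in control female 30. The genes named next were chosen after their values were seen. In LDP female 54, Socs2, a feedback inhibitor of growth hormone signalling, was at 119 CPM against 17.7 to 48.2 CPM in the others, and the interferon-induced chemokine Cxcl10 at 25.3 against 3.76 to 7.42 CPM. The fatty acid elongase Elovl3 was at 0.141 against 3.23 to 6.72 CPM, the female-predominant P450 Cyp3a41a, which has close copies, at 3.75 against 18.01 to 55.1 CPM, and Tsc22d3, a glucocorticoid target, at 68.4 against 171 to 199 CPM. Each was picked because that liver lay at least 2-fold beyond all other 5 mice, so this separation is fixed by the choice. In control female 29, Pdk4, which spares glucose when fat is burned, was at 17.5 CPM against 5.82 to 8.24 CPM, and the chaperone Hspa1b at 33.8 against 6.31 to 14.6 CPM. In LDP female 39, the repressor Bcl6 was at 43.98 CPM against 8.86 to 14.8 CPM and the neurotrophin receptor Ntrk2 at 28.4 against 2.49 to 10.1 CPM.

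**Figure D4:**
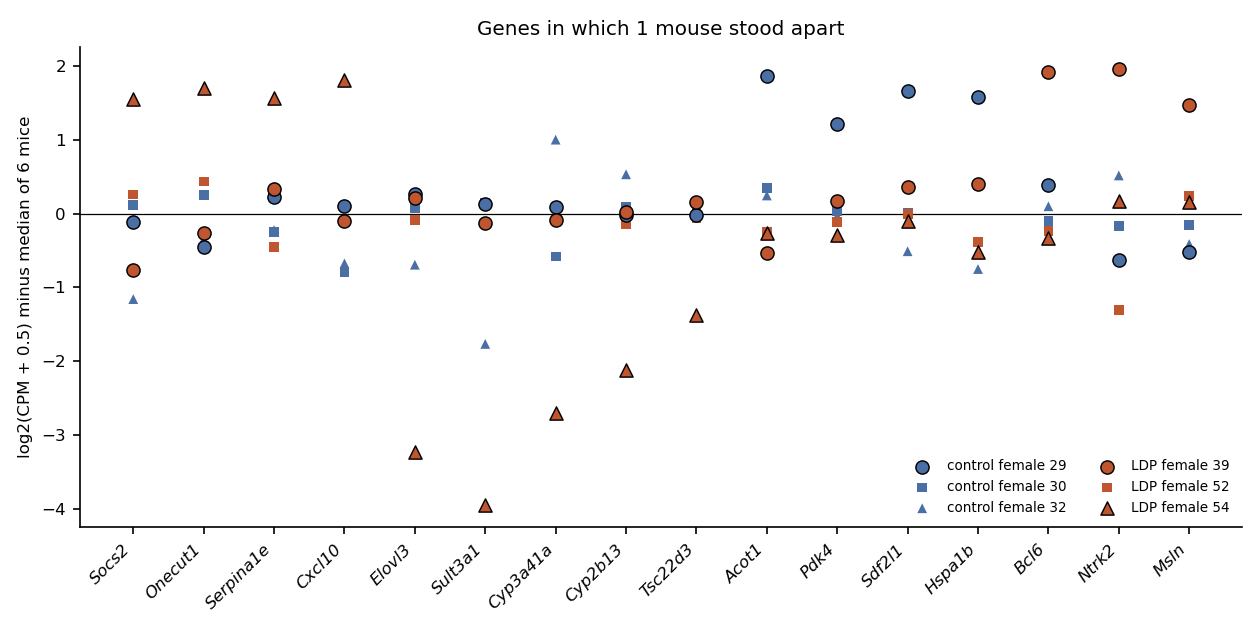
Level of 16 genes in each of the 6 mice, as log2(CPM + 0.5) minus the median of the 6 mice, for genes that set 1 mouse apart. LDP female 54 lies far below the others in Elovl3 and Cyp3a41a and above them in Socs2, and control female 29 lies above them in Acot1 and Pdk4.

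The plot of single-mouse genes shows 1 outlying mouse for each gene, in either group, which is fixed by how the genes were chosen.

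The recipients address whether transferred microbiota gives the pattern of the treated females. By edgeR, 0 of 13295 genes passed the test of a difference between the effect in LDP females and the effect of LDP microbiota, with 392 higher (2.95%) and 398 lower (2.99%) in the females at an unadjusted p under 0.05, and DESeq2 called 12. The 2 effects share no library. The matrix list had a median of 0.61 in LDP females and -0.015 in recipients, and 10 of its members differed at an unadjusted p under 0.05, all higher in the females (7 without LDP female 54). Col6a3 was at 6.62, 6.11 and 6.32 CPM in control recipients 1, 3 and 7 and 4.66, 3.82 and 4.98 in LDP recipients 2, 5 and 8, and the effects differed by 1.47 ± 0.24 (edgeR adjusted p = 0.225). Col1a1 differed by 1.41 ± 0.31 and Gja4 by -1.52 ± 0.31. Of the 12512 genes tested in both comparisons, 6063 were higher in LDP recipients, with a median of -0.008. Mitochondrial oxidation had a median of -0.30 in LDP females and 0.26 in recipients, where 23 of 24 members were higher. Of its members, 19 differed at an unadjusted p under 0.05, all lower in the females, 8 without control female 29, 12 without LDP female 52, 10 without LDP recipient 8 and 12 and 11 without control recipients 1 and 3. Omega and peroxisomal oxidation had medians of -0.37 and 0.25, with 9 such members, 4 without control female 29, 5 without LDP recipient 5 and 14 without control recipient 7. The oxidation lists were not alone on the higher side in recipients. Respiratory chain genes were higher there in 49 of 55 (median 0.18) and cholesterol synthesis genes in 22 of 24 (0.48). Inducible acute phase proteins were higher in 5 of 28 (-0.20) and basement membrane and remodelling genes in 6 of 26 (-0.15). Acaa1b was lower in LDP females (-0.66 ± 0.21) and stood at 0.70 ± 0.20 in recipients, a difference of -1.38 ± 0.32. Emp1, an epithelial membrane protein, stood at 1.26 ± 0.30 in LDP females and -1.16 ± 0.30 in recipients, a difference of 2.40 ± 0.44. The type I interferon list had a median of 0.006 in recipients, with 1 member that differed at an unadjusted p under 0.05. Sex being equal, strain, drug, colonization and any difference in time on the high-fat food cannot be told apart in this contrast.

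**Figure D5:**
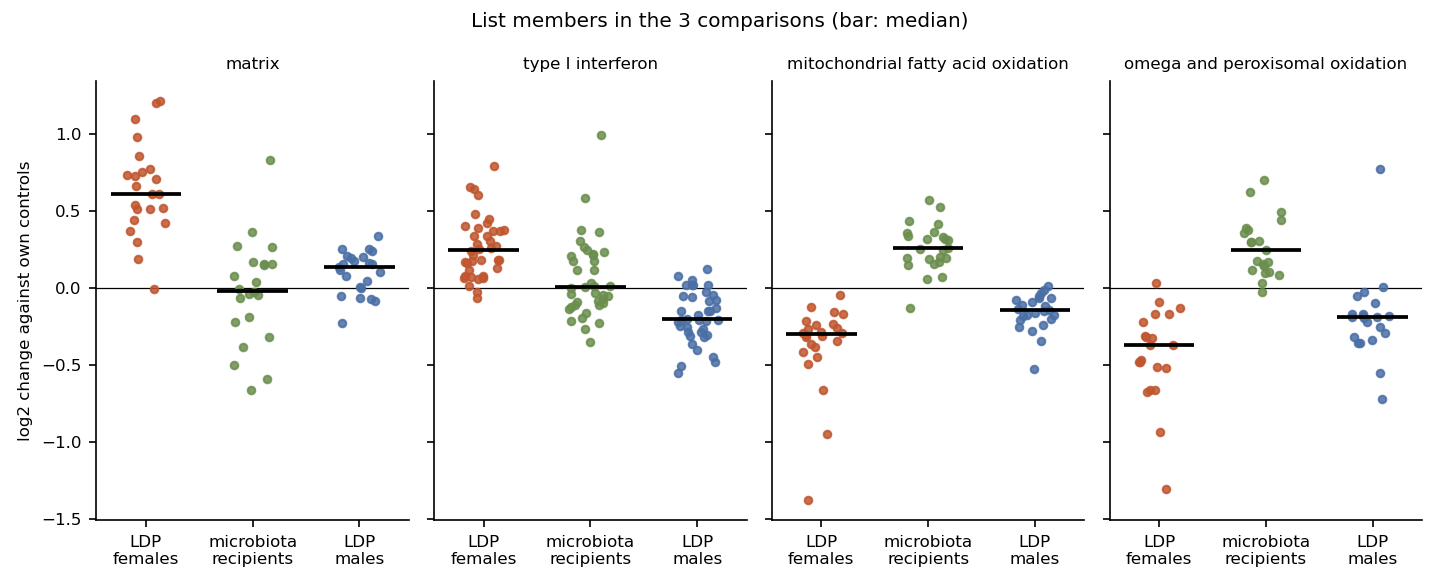
Change of each member of 4 gene lists against its own controls, on the log2 scale (vertical), in LDP females, microbiota recipients and LDP males, with bars at the medians. The matrix members have a median of 0.61 in LDP females and -0.015 in recipients, and the mitochondrial oxidation members -0.30 and 0.26.

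The plot of the 3 comparisons sets the LDP females beside the recipients and the males of the same strain. For males, 0 of 12747 genes passed the test of a difference of effects, with 189 higher (1.48%) and 156 lower (1.22%) in the females at an unadjusted p under 0.05, and DESeq2 called 1, Atf3. Male and female libraries were counted in separate tables, so only changes against own controls were set side by side. The male libraries were also deeper, at 70336366 to 74418889 counts against 17937005 to 25703227 in the LDP and control females. Of the 11539 genes tested in both sexes, 5636 were higher in LDP males, with a median of -0.003. The type I interferon list had a median of 0.25 in females and -0.20 in males, where 7 of 38 members were higher, and 11 members differed at an unadjusted p under 0.05, all higher in females. Their number was 25 without LDP male 10, 6 without LDP male 8, control male 5 or LDP female 52, and 7 without control male 7 or control females 30 or 32. Rsad2 was at 19.9, 16.8 and 21.5 CPM in control males 5, 6 and 7 and 12.96, 18.2 and 10.5 in LDP males 8, 10 and 11, and the effects differed by 1.14 ± 0.25. Cmpk2 differed by 1.22 ± 0.29. Cholesterol synthesis was the reverse, with a median of 0.006 in females and 0.90 in males, where 24 of 24 members were higher, and 7 differed at an unadjusted p under 0.05, 13 without LDP male 11, 12 without LDP female 39 and 11 without control female 32. Both oxidation lists were on the lower side in males too, with medians of -0.14 and -0.19, and 0 and 1 members differed from the females at an unadjusted p under 0.05. The matrix list had a median of 0.14 in males, with 2 members that differed, or 14 without LDP male 10, the mouse in which Col3a1 stood at 136 CPM against 25.7 and 58.1 in LDP males 11 and 8.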

How the data were processed

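Liver RNA of 1 mouse made each library (RNeasy Mini Kit and TruSeq v2, per the labels' protocols). Per the submitters' processing notes, the build was mm10 and the tools were DESeq, featureCounts 1.4.3-p1, HTSeq 0.5.3p9 and STAR 2.3.0e, without a stated role for each. Strandedness and the treatment of reads shared by close copies are not given in the sources used here. Paralogs (Cyp4a, Acaa1, Gbp, Mup, Cyp3a, Hba) and overlapping antisense genes are therefore uncertain. What the authors deposited is, for each sex, a table of raw counts per gene with 1 column per mouse. The length in bases that the authors give per gene in the male table is an "other" value and was not used.

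Low genes were removed with filterByExpr (at least 10 counts, total of at least 15). Library sizes were TMM-scaled, and edgeR 4.0.16 (R 4.3.3) gave a quasi-likelihood F test from a robust fit, adjusted by Benjamini-Hochberg with a threshold of 0.05. Each SE was derived from the F statistic and is approximate. Levels are printed as CPM over the TMM-scaled library size. Differences of effects were fitted over the 12 libraries concerned, with 1 coefficient per group. Lists were described by counts and medians, with no test. Fits were tested on simulated data.

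The comparison, lists and naming rule were chosen with earlier results of these data known. The rule names, per direction, the 15 genes of lowest p with a mean of at least 1 CPM, no overlap and a proper symbol, up to 4 members of each list in its direction and 1 in the other, and, for each difference of effects, the 5 of lowest p per direction. Of these, only some are printed. Alternatives were DESeq2 1.42.0, relative log expression and upper quartile factors, other filters on low counts, a fit that is not robust, 12 libraries sharing the spread and leaving out mice. The labels number the mice, which serve as replicates, and p-values set the group difference against the estimated spread between them. With litters and cages not given, the mice may not be independent. No 2 libraries of a group were copies, with a chi-square per degree of freedom of 13.67 to 51.49. Gene positions are from GENCODE M21 (GRCm38), promoters from RefSeq (GRCm38.p6).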

Additional observations from a re-analysis of the deposited data

How the results depend on the processing

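Of the 53 genes printed with a change, 51 kept their sign under every alternative. The log2 change of Epsti1 ranged from -0.174 to 0.072 with a mouse left out, above 0 without LDP female 39 or control female 32. The log2 change of Fn1 ranged from -0.05175 to 0.0685, above 0 without LDP female 54 or control female 30, and was 0.0108 with upper quartile factors and 0.01475 without both mice 29 and 54. The count of passing genes was 15 with DESeq2 and 1 with no filter on low counts (Col3a1), and 0 to 1 when each mouse was left out (A1bg without LDP female 39). For the difference from recipients it was 12 with DESeq2 and 0 to 3 with a mouse left out, and for that from males 1 and 0 to 1. Genes at an unadjusted p under 0.05 numbered 430 to 735 in females with a mouse left out, against 582, 450 to 1224 against 790 for the difference from recipients, and 215 to 545 against 345 for that from males. Leaving out both control female 29 and LDP female 54, an alternative chosen after seeing the data, gave 343 and 555 for those differences and a median of -0.13 for omega and peroxisomal oxidation, against -0.37. With 1 mouse left out, medians were 0.50 to 0.72 for matrix, 0.18 to 0.33 for type I interferon, -0.39 to -0.14 for mitochondrial and -0.51 to -0.25 for omega and peroxisomal oxidation. The albumin share differed by 0.04 to 0.993 percentage points with a mouse left out. The cause of these shifts was not tested. Low counts limit Atf3, Cx3cl1 and mesothelial markers such as Upk3b and Msln. No paired analysis was possible because LDP and control females share no replicate numbers.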
